A study of Mus musculus with 27 samples.

Results

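The retinoblastoma (Rb) and p53 pathways are the main cellular targets of the SV40 T antigens, and the levels of their central genes were followed across prostate tumours driven by these antigens. The set held 10 genes: the pocket protein genes Rb1, Rbl1 and Rbl2, the cyclin genes Ccnd1 and Ccne1, the transcription factor gene E2f1, and Trp53, Mdm2, Cdkn2a and Cdkn1a of the p53 arm. Genes were found by symbol among array rows that carry a single gene symbol, and a gene with several such rows was taken from the row of highest mean. In this way 9 of the 10 genes were measured, out of 22180 genes on the arrays. Trp53 is not named by such a row and is not analysed here, nor is the RNA of the transgene.

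All 27 tumours came from transgene-positive F2 males of a cross between C57BL/6-Tg(TRAMP)8247Ng/J and PWK/PhJ mice, with 1 array per tumour and 1 tumour per male. They were taken at 30 weeks of age or at a humane endpoint, and they form 1 group, so the data show variation between tumours and no contrast between conditions. In TRAMP mice the SV40 early region is driven by a probasin promoter, which is active in androgen-responsive prostate epithelium. Every tumour carries the transgene, and each F2 male has its own mix of C57BL/6 and PWK/PhJ alleles. Tumours are named by animal number.

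In a normal cell, Rb1 and its relatives Rbl1 (p107) and Rbl2 (p130) bind E2F factors and hold back the genes of S phase. Cyclin D1 and cyclin E1, with their kinases, phosphorylate the pocket proteins and release E2F. The p53 protein induces Cdkn1a, which inhibits these kinases, and Mdm2, which degrades p53, while Cdkn2a encodes Arf, an inhibitor of Mdm2, and p16, an inhibitor of the cyclin D kinases. Large T antigen binds the pocket proteins and p53, and acts on the proteins, so RNA levels do not report that binding.

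Values are log2 expression as deposited. The median of all row means was 5.79, and probe levels of different genes are not set against each other. Array medians lay between 5.67 and 5.82, and pairs of arrays correlated at 0.891 to 0.986. Of the defining genes of the labelled prostate tissue, Pbsn, the gene of probasin, lay under the median of all rows in 25 of 27 tumours (3.35 to 8.70, median 3.58, highest in P425). Of the marker lists, androgen-responsive genes split the tumours into 23 low and 4 high, neuroendocrine genes into 4 low (P471, P425, P966 and P1276) and 23 high, and luminal epithelium genes into 19 low and 8 high. In bulk tissue, fewer cells of a type and less RNA per cell cannot be told apart.

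Because E2F proteins act at promoters, the RefSeq windows of 300 bases around the start site (GRCm38.p6) were searched on both strands for the E2F letters TTTGGCGC, TTTCCCGC, TTTGCCGC and TTTCGCGC. Of the 9 measured genes 7 had a window; Rb1 and Ccnd1 had none in the table. Rbl1 and Cdkn2a (in 1 of its 2 windows) held 1 match each, shown in capitals below, in TTTCGCGC at -18 and TTTCCCGC at -99 from the start site. The E2f1 window, shown beside them because E2f1 is known to be regulated by E2F proteins, held none of these letters. It is the only E2f1 window in the source and lies at 1 annotated start site. E2f1 sequence upstream of this window was not searched, so the absence does not describe the E2f1 promoter as a whole.
Rbl1, chr2:157204485-157204784, minus strand: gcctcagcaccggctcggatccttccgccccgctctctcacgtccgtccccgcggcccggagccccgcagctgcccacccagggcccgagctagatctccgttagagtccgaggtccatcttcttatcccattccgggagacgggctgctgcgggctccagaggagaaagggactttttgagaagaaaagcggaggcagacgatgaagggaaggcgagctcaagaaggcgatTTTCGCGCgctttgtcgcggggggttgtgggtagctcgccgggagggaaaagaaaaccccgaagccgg
Cdkn2a, chr4:89294570-89294869, minus strand: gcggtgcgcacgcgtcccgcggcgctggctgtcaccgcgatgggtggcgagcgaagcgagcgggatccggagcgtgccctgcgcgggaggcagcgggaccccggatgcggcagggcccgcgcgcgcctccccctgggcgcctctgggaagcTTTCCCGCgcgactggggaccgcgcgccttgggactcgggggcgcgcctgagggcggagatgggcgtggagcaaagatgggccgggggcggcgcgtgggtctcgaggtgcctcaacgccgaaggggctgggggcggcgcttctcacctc
E2f1, chr2:154569377-154569676, minus strand: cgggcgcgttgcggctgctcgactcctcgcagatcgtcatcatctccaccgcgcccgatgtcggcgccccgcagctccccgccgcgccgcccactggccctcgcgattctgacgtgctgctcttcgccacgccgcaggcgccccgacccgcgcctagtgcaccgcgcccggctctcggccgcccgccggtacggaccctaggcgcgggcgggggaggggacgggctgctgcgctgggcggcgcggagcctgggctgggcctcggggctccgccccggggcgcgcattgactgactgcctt
The letters occurred in 35.9% of 39 windows of a list of E2F target and DNA replication genes and in 5.0% of 20 windows of a list of mitosis genes, against 2.26% of all 32851 promoter windows. The mitosis genes instead held the letters TTTGAA, the core of the CHR element bound by the MuvB complex, in 65.0% of their windows, against 17.9% of all windows; among the members Rbl2 held this match, on the opposite strand. A match describes the letters and not binding.

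Rb1, the gene of the pocket protein that T antigen disables, was well expressed in all tumours. Its level was 9.22 in the lowest tumour (P425), 10.4 at the median and 10.89 in the highest (P1225), and 24 of 27 tumours lay within 0.5 log2 of the median. The low end was made by P425 and by P1276 at 9.62. A second row of Rb1 lay under the median of all rows (3.38 to 5.22, median 3.97) and correlated with the used row at 0.56. Rows shared with Lpar6, a gene inside an intron of Rb1, correlated with it at 0.70 and -0.46 and were not used.

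Rbl1, whose promoter carries the E2F letters above, ranged over a similar width to Rb1. The lowest tumour was P569 at 9.18, the median 10.08 and the highest P471 at 10.84. The next highest was P966 at 10.78, and P425, the lowest for Rb1, was the second lowest for Rbl1 at 9.30. Rbl2, the pocket protein of resting cells, ranged from 7.48 in P757 through a median of 8.35 to 9.27 in P311.

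Ccnd1, the gene of cyclin D1, varied most among the 9. It was 5.99 in P1394, 7.09 at the median and 8.57 in P1276, a 5.98-fold span. P471 (8.48), P966 (8.39) and P235 (8.20) followed P1276, and P509 (6.02) and P619 (6.10) lay beside P1394 at the low end. Ccne1, the gene of cyclin E1, spanned 7.16 in P425, 8.06 at the median and 8.53 in P509. E2f1 spanned 8.69 in P471, 9.67 at the median and 10.22 in P902, and its low end was shared by P219 (8.98), P425 (9.11) and P966 (9.16).

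Of the p53 arm, Cdkn1a (p21) had the widest spread. It was 8.67 in P1218, 9.65 at the median and 11.0 in P966, with P1276 at 10.9 beside it, a 5.01-fold span. Mdm2 and Cdkn2a were the steadiest members. Mdm2 spanned 8.26 in P503, 8.77 at the median and 9.35 in P1218, and Cdkn2a spanned 7.66 in P268, 8.10 at the median and 8.64 in P503. Their SDs were 0.25 each, against 0.70 for Ccnd1, 0.55 for Cdkn1a, 0.44 for Rbl2, 0.41 for Rbl1 and E2f1, 0.39 for Rb1 and 0.34 for Ccne1. The median SD of the members was 0.41, against 0.30 over all genes. No member's levels fell into separate clusters.

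**Figure D1:**
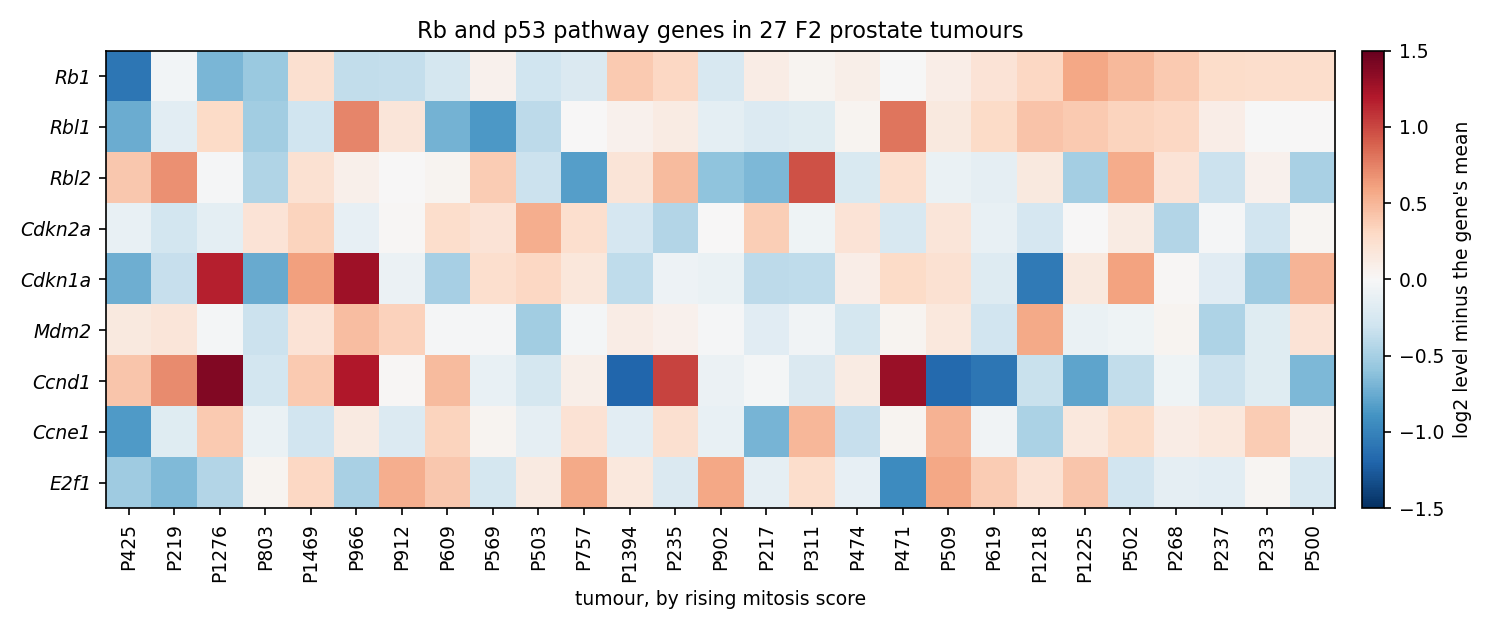
Log2 level of each measured gene minus its mean (colour) in the 27 tumours, ordered from left to right by rising mitosis score. Rb1 is lowest in P425 at the left end, and Ccnd1 is high in P1276, P966, P471 and P235.

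Whether the members varied together was tested by regressing every gene on the level of each member, scaled to an SD of 1, with limma across all 22179 other genes and Benjamini-Hochberg adjustment at 0.05. Of 36 pairs, 1 passed in both directions: E2f1 was lower where Ccnd1 was higher. E2f1 fell by 0.24 log2 per SD of Ccnd1 (SE 0.065, adjusted p = 0.00913, limma), and Ccnd1 fell by 0.41 per SD of E2f1 (SE 0.11, adjusted p = 0.00727, limma), where 18.5% of all genes passed on Ccnd1 and 21.7% on E2f1. Over the 27 tumours Pearson's r was -0.591 (permutation p = 0.0012) and Spearman's rho was -0.436 (permutation p = 0.024), and r was -0.456 without P1276 and P471. P471, P966 and P1276, which were low in neuroendocrine genes, had Ccnd1 at 8.48, 8.39 and 8.57 and E2f1 at 8.69, 9.16 and 9.20. With P425 they are the 4 tumours of the low neuroendocrine cluster, and without these 4 the pair did not pass (E2f1 on Ccnd1 -0.11, adjusted p = 0.523, limma). Nor did it pass with the neuroendocrine and luminal scores as covariates (E2f1 on Ccnd1 -0.068, adjusted p = 0.899, limma). Nearly all genes lost their call on Ccnd1 in these settings, so in that direction the loss is not particular to this pair. On the Ccnd1 level 7 of 22179 genes passed without the 4 tumours and 3 with the covariates, against 4111 in the main fit. On the E2f1 level 1990 and 3046 still passed, against 4804. Ccnd1 on E2f1 did not pass in either setting, so in this direction the loss was less general.

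**Figure D2:**
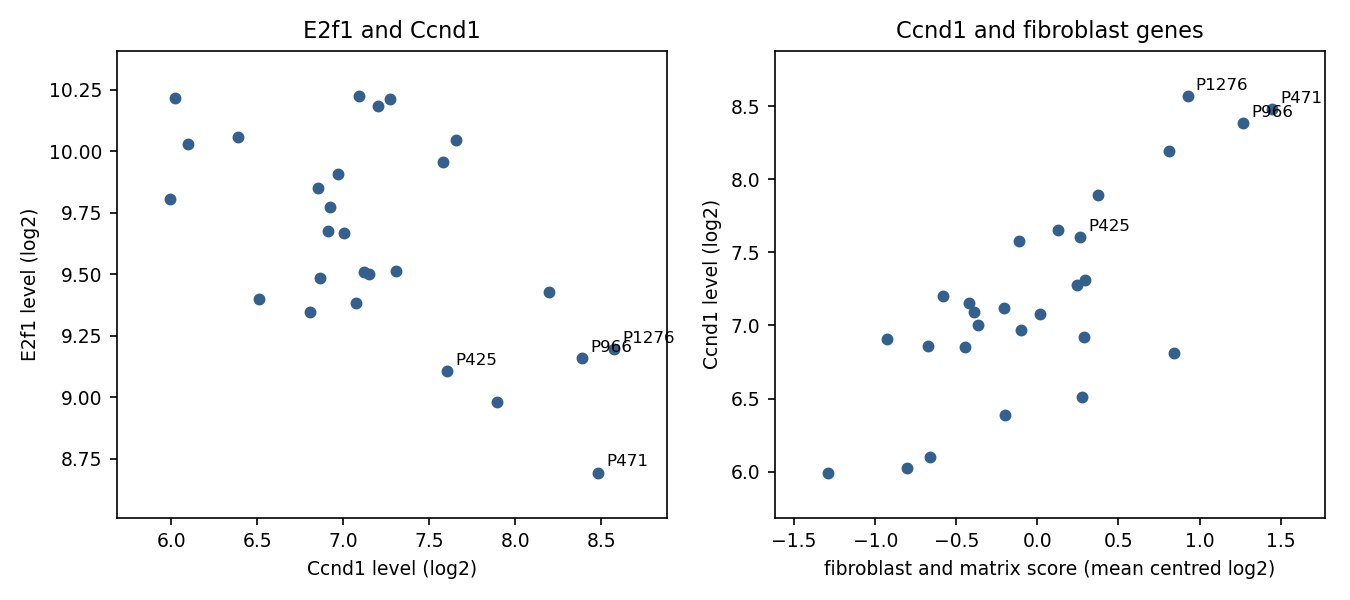
Each point is a tumour (n = 27), with log2 levels of Ccnd1 and E2f1 on the left and the fibroblast and matrix score (mean centred log2 level of its genes) against Ccnd1 on the right. P471, P966 and P1276 hold high Ccnd1 and low E2f1, and lie at the high end of the fibroblast score.

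Rb1 and Ccnd1 passed in 1 direction only. Ccnd1 fell by 0.32 per SD of Rb1 (SE 0.12, adjusted p = 0.047, limma), where 24.7% of all genes passed, while Rb1 on Ccnd1 did not pass (adjusted p = 0.0593, limma); r was -0.463 and rho -0.532 (permutation p = 0.015 and 0.0047), and r was -0.365 without P425 and P1276. Over all 27 tumours the pocket proteins did not pass with each other: Rb1 and Rbl1 had r 0.372 (permutation p = 0.057; rho 0.382, permutation p = 0.05), Rb1 and Rbl2 0.0666 (permutation p = 0.74) and Rbl1 and Rbl2 -0.0209 (permutation p = 0.92). The rho of the last 2 pairs was 0.106 and 0.036 (permutation p = 0.6 and 0.86). Rb1 and Rbl1 did pass in both directions in the same settings that lost the pair of Ccnd1 and E2f1. Without the 4 tumours low in neuroendocrine genes Rbl1 rose by 0.20 per SD of Rb1 (SE 0.058, adjusted p = 0.0364, limma) and Rb1 by 0.18 per SD of Rbl1 (SE 0.051, adjusted p = 0.0361, limma). With the neuroendocrine and luminal covariates the slopes were 0.24 and 0.23 (adjusted p = 0.0205 and 0.0429, limma).

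Within the p53 arm no pair passed. Cdkn1a and Mdm2, both p53 targets, had r 0.0871 (permutation p = 0.67) and rho 0.153 (permutation p = 0.44). Cdkn2a and Mdm2 had r -0.387 (permutation p = 0.045) and rho -0.319 (permutation p = 0.1), and Cdkn2a and Cdkn1a 0.156 (permutation p = 0.44) and 0.2 (permutation p = 0.32). Cdkn2a ran against the pocket protein genes Rbl1 (r -0.485) and Rbl2 (r -0.463), with permutation p of 0.01 and 0.015 before any adjustment over the 36 pairs and rho of -0.488 and -0.495 (permutation p = 0.011 and 0.0095), and neither passed in the fits. On the Rbl1 level 2.67% of all genes passed, on Rbl2 0.0271%, on Cdkn2a 1.58% and on Cdkn1a 0.14%, and no other member passed in these 4 fits. On Mdm2 and on Ccne1 0% passed: limma called 0 genes, with 1100 and 2280 at an unadjusted p under 0.05.

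The members were next set against the output of the pathway, as a score: the mean centred log2 level of a list of genes in each tumour. The E2F score held 36 measured genes of E2F targets and DNA replication (such as Mcm2, Pcna and Rrm2), the mitosis score 23 genes (such as Mki67, Plk1 and Bub1), and no member is in either. Of the 9 members, 2 passed with each score, Rb1 and Ccne1, beside 23.4% of all genes with the E2F score and 26.3% with the mitosis score. P425 lay far below all other tumours on both, at -1.05 on the E2F score, where the next was P803 at -0.35, and at -1.83 on the mitosis score, where the next was P219 at -0.39. P425 was also the tumour with the lowest Rb1 and Ccne1, with an androgen-responsive score of 3.88, the highest of all. Over the 27 tumours the E2F and mitosis scores had r 0.913 with each other. Both also moved with composition. Their r was -0.727 and -0.69 with the androgen-responsive score, and -0.684 and -0.626 with the luminal score. With the neuroendocrine score it was 0.472 and 0.459, and with the fibroblast and matrix score -0.164 and -0.166.

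Rb1 rose with the mitosis genes. Its level was higher by 0.31 log2 per SD of the mitosis score (SE 0.047, adjusted p = 2.33e-05, limma). Pearson's r was 0.788 and rho 0.753, each with a permutation p of 1e-05, the smallest the permutations can give, and r was 0.751 without P425 and P219. The slope passed with each of the 27 tumours left out in turn, between 0.23 and 0.32, and without the 4 tumours low in neuroendocrine genes it was 0.19 (SE 0.049, adjusted p = 0.016, limma).

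Rb1 on the E2F score rested on P425. The slope was 0.24 (SE 0.059, adjusted p = 0.00381, limma) with P425 and 0.11 (adjusted p = 0.253, limma) without it, r was 0.617 (permutation p = 0.0017) and rho 0.305 (permutation p = 0.12), and r without P425 and P803 was 0.207. The same held for Ccne1, an E2F target: 0.19 per SD of the E2F score (SE 0.058, adjusted p = 0.0195, limma), and 0.084 (adjusted p = 0.41, limma) without P425. Its r with the E2F score was 0.545 (permutation p = 0.0043), rho 0.396 (permutation p = 0.043), and r without P425 and P803 was 0.27. With the neuroendocrine and luminal scores as covariates Rb1 did not pass on the E2F score, while Ccne1 and Cdkn1a did. In this setting 1526 of 22144 genes passed. On the mitosis score Ccne1 had 0.17 (SE 0.060, adjusted p = 0.0377, limma), which was lost without P425 (0.044, adjusted p = 0.649, limma), and also without P233 (0.16) or P502 (0.16). Its r with the mitosis score was 0.492 (permutation p = 0.012) and rho 0.305 (permutation p = 0.12). Without P425 and P219 this r was 0.099.

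**Figure D3:**
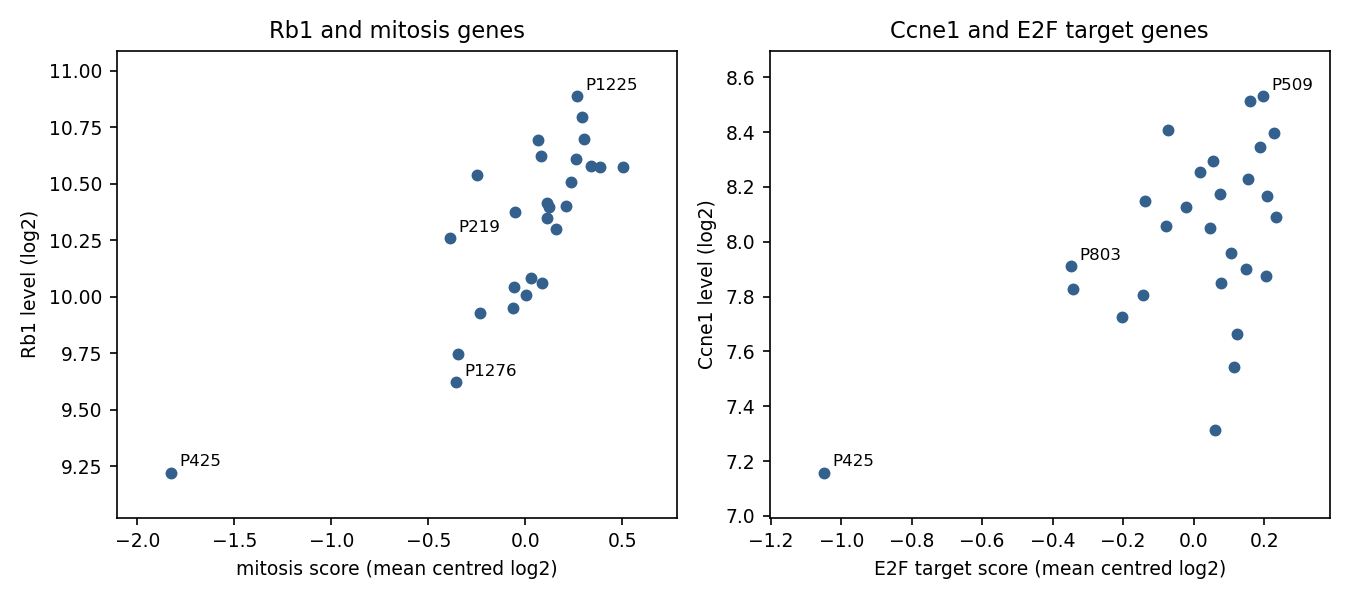
Each point is a tumour (n = 27), with Rb1 log2 level against the mitosis score on the left and Ccne1 log2 level against the E2F target score on the right (scores in mean centred log2). Rb1 rises along the mitosis score also among the tumours other than P425, while on the right P425 stands alone at the low end.

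The other members did not pass with these scores in the main fits over all 27 tumours. E2f1 had a slope of 0.18 on the E2F score (SE 0.072, adjusted p = 0.0801, limma) and 0.12 on the mitosis score (adjusted p = 0.255, limma). Rbl1, which holds an E2F match in its promoter, had 0.11 (SE 0.077, adjusted p = 0.349, limma) on the E2F score and 0.19 (SE 0.071, adjusted p = 0.0509, limma) on the mitosis score, where it passed without the 4 tumours low in neuroendocrine genes (0.20, SE 0.058, adjusted p = 0.0257, limma). Rbl1 also passed there with only genes above the median level, with chromosome medians removed and with the animal number as a covariate. The same held with the neuroendocrine and luminal covariates, and without P966, P471, P1276, P609 or P569 alone. Cdkn2a, the other member with a match, had 0.041 on the E2F score (SE 0.051, adjusted p = 0.616, limma). Ccnd1 had -0.26 and -0.28 on the E2F and mitosis scores (adjusted p = 0.129 and 0.102, limma), and Rbl2 -0.13 and -0.10 (adjusted p = 0.249 and 0.379, limma). By rank Ccnd1 ran against both scores: rho was -0.5 with the E2F score and -0.576 with the mitosis score, with permutation p of 0.0082 and 0.002 and Benjamini-Hochberg adjusted p of 0.037 and 0.018 over 45 relations of 9 members with 5 scores. Its r was -0.377 and -0.392 (permutation p = 0.054 and 0.045), and -0.571 without P425 and P803 and -0.514 without P425 and P219. For r over all 27 tumours the Benjamini-Hochberg adjusted permutation p was 0.12 and 0.11. In the fits Ccnd1 passed on the mitosis score without P425, without P425, P219 and P268 (-0.38, SE 0.126, adjusted p = 0.0361, limma) and with normal scores of the mitosis score (-0.35, SE 0.117, adjusted p = 0.0309, limma).

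A p53 target score was made of 24 measured p53 targets other than Cdkn1a and Mdm2. Of the 9 members, 4 passed with it, beside 28.9% of all genes. Ccnd1 rose by 0.52 per SD (SE 0.091, adjusted p = 6.79e-05, limma) and Rbl2 by 0.20 (SE 0.076, adjusted p = 0.0427, limma). E2f1 fell by 0.27 (SE 0.062, adjusted p = 0.00139, limma) and Rb1 by 0.21 (SE 0.063, adjusted p = 0.0126, limma). The classical p53 targets among the members did not pass in the main fit. Cdkn1a had 0.23 (SE 0.094, adjusted p = 0.0653, limma) and Mdm2 0.072 (SE 0.050, adjusted p = 0.314, limma). The call of Cdkn1a lay near the threshold and changed between settings. Cdkn1a passed when only genes above the median level were kept, or under the mitosis covariate. Leaving out P425, P219, P803, P311 or P500 alone, or P425, P219 and P268 together, also made it pass. In the other settings run Cdkn1a did not pass, and Mdm2 passed in none. Cdkn2a had -0.059 (adjusted p = 0.434, limma).

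The correlations of these members with the p53 target score were 0.739 for Ccnd1 (permutation p = 2e-05; rho 0.656, permutation p = 0.00022) and -0.646 for E2f1 (permutation p = 0.00028; rho -0.513, permutation p = 0.0069). For Rb1 r was -0.539 and for Rbl2 0.466, with permutation p of 0.004 and 0.014 and rho of -0.527 and 0.551. Without P471 and P1276 r was 0.609 for Ccnd1, -0.514 for E2f1, -0.517 for Rb1 and 0.531 for Rbl2. These belong to a family of 45 relations of 9 members with 5 scores, in which Ccnd1, E2f1 and Rb1 had Benjamini-Hochberg adjusted p for r of 3e-04, 0.0025 and 0.022, and Rbl2 0.052. For rho the adjusted permutation p of Ccnd1, E2f1, Rb1 and Rbl2 was 0.0033, 0.034, 0.03 and 0.02. In the same family the adjusted p for r was 3e-04 for Rb1 with the mitosis score, 0.011 and 0.022 for Rb1 and Ccne1 with the E2F score, and 0.049 for Ccne1 with the mitosis score. By rank only the first of these held, with adjusted permutation p for rho of 0.00045, 0.22, 0.12 and 0.22 in the same order.

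Tumour composition moved with the p53 target score. With it rose 13 of 13 luminal epithelium genes (score -1.55 to 2.85) and 9 of 10 fibroblast and matrix genes (score -1.29 to 1.45), and 12 of 17 neuroendocrine genes fell and 1 rose (score -2.56 to 0.99). The part of composition in the slopes of the members was looked at only by adjustment. With the neuroendocrine and luminal scores as covariates 0 of the 9 members passed, beside 0 of all 22156 genes tested, so the loss is not particular to the members. Ccnd1 had 0.54 with an SE of 0.252 (adjusted p = 0.482, limma), against 0.52 and 0.091 in the main fit. The sign of E2f1 turned, to 0.078 (adjusted p = 0.897, limma). The p53 target score had r 0.895 with the luminal score and -0.753 with the neuroendocrine score. Little of its variation is thus left beside these covariates, and the adjusted fit cannot separate the score from composition. Without the 4 tumours low in neuroendocrine genes 1 member passed, beside 1661 of the 22156 genes. This was Rbl2 at 0.28 (SE 0.078, adjusted p = 0.0294, limma), while Ccnd1 had 0.24 (adjusted p = 0.162, limma). Without P1276 alone Rb1 did not pass (-0.17, adjusted p = 0.0523, limma). Rbl2 passed in 13 of the 27 fits that leave out 1 tumour, with slopes between 0.18 and 0.23.

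Of the composition scores, only the measure of stroma had members that passed in the main fits. With the fibroblast and matrix score (10 genes such as Col1a1 and Dcn) 3 of the 9 members passed, beside 14.4% of all genes: Ccnd1 rose by 0.55 (SE 0.086, adjusted p = 0.000177, limma), Cdkn1a rose by 0.32 (SE 0.085, adjusted p = 0.0113, limma) and E2f1 fell by 0.27 (SE 0.062, adjusted p = 0.00435, limma). Correlations were 0.777 for Ccnd1 (permutation p = 2e-05; rho 0.663, permutation p = 0.00019), 0.586 for Cdkn1a (permutation p = 0.0012; rho 0.557, permutation p = 0.0031) and -0.648 for E2f1 (permutation p = 0.00022; rho -0.62, permutation p = 0.00071). Without P471 and P966, the tumours highest on this score, r was 0.685, 0.5 and -0.507 in the same order, and the adjusted p for r in the family of 45 was 3e-04, 0.009 and 0.0025. None of the 3 passed without the 4 tumours low in neuroendocrine genes, where the slope of Ccnd1 was 0.33 (SE 0.093, adjusted p = 0.111, limma). None passed with the neuroendocrine and luminal covariates either, where Ccnd1 had 0.41 (SE 0.109, adjusted p = 0.104, limma), Cdkn1a 0.32 (adjusted p = 0.284, limma) and E2f1 -0.13 (adjusted p = 0.562, limma). Of all 22170 genes 133 passed without the 4 tumours and 94 with the covariates, against 3201 in the main fit. Most genes thus lost their call, and the loss is not particular to these members. Without P966 alone Cdkn1a did not pass (0.25, adjusted p = 0.0687, limma).

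No member passed with the macrophage and myeloid score, beside 4.04% of all genes. Ccnd1 came closest, at 0.37 (SE 0.115, adjusted p = 0.0669, limma), with r 0.525 (permutation p = 0.0048, adjusted p = 0.022 over the 45 relations), rho 0.378 (permutation p = 0.052, adjusted p = 0.13) and r 0.472 without P803 and P471. Within the clusters of the other 3 composition scores no member passed either, where 0.0226% of genes passed in the 23 tumours with low androgen-responsive genes and 0.965% in the 19 with low luminal genes. In the 23 tumours with high neuroendocrine genes, and in the 8 with high luminal genes, 0% passed: limma called 0 genes, with 2303 and 2888 at an unadjusted p under 0.05. The 0 among the 8 tumours depended on single tumours, with 227 genes called without P471 and 107 without P425.

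**Figure D4:**
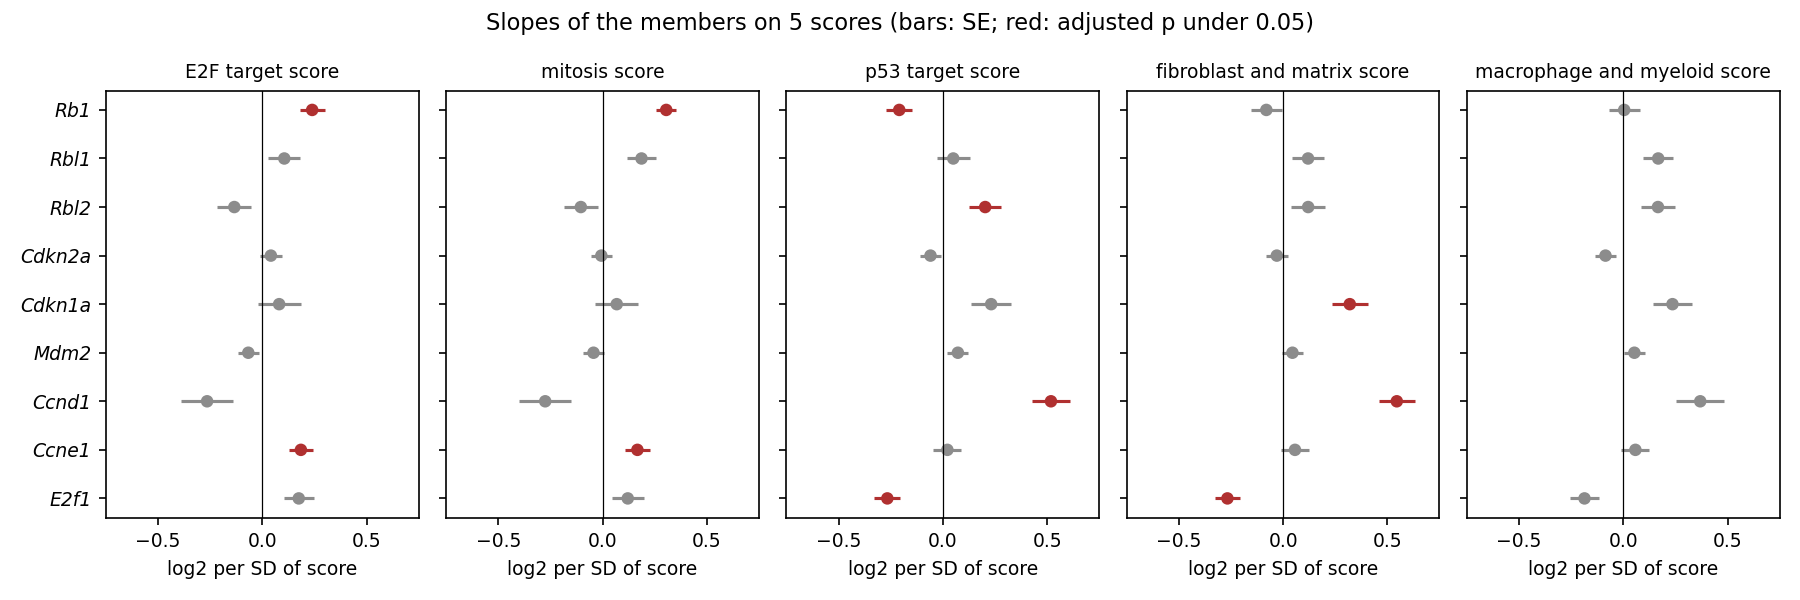
Slope of each measured member (rows) on 5 scores, in log2 per SD of the score over 27 tumours; bars are the SE, and red points have an adjusted p under 0.05 (limma). Rb1 and Ccne1 are red on the E2F and mitosis scores, and Ccnd1 and E2f1 lie on opposite sides of 0 on the p53 target and fibroblast scores.

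The other genes of the pathway were read off the fits on member levels, which share the tumours with the results above. Where Rb1 was higher, beside the 24.7% of all genes that passed in either direction, 21 of 23 mitosis genes were higher and none lower, among them Bub1, a spindle checkpoint kinase (0.62, SE 0.078, adjusted p = 4.91e-06, limma), and Kif11, a spindle motor (0.56, SE 0.067, adjusted p = 3.29e-06, limma). The median slope of the list was 0.34, against -0.03 over all genes. Of 36 E2F target genes 16 were higher and 1 lower (median 0.17), with Rrm2, the ribonucleotide reductase subunit of S phase, at 0.55 (SE 0.096, adjusted p = 0.000203, limma) and Prim1, a primase subunit, at 0.42 (SE 0.066, adjusted p = 5.5e-05, limma). Of the 9 other E2F and DP genes 6 were higher and 1 lower, led by E2f3 (0.45) and E2f8 (0.43), an activating and a repressing E2F. Of 7 DREAM and MuvB genes 3 were higher, with the kinase gene Dyrk1a at 0.25 and Lin9 at 0.24. These list counts include P425, the tumour lowest in Rb1 and on the E2F and mitosis scores. Without P425 2927 of 22179 genes passed on the Rb1 level, against 5488 with it.

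The shares of p53 regulators and p53 targets that passed along Rb1 were below the 24.7% of all genes. Of 12 p53 regulators 2 were higher, Mdm4, an inhibitor of p53, at 0.32 (SE 0.053, adjusted p = 0.000128, limma) and the ubiquitin ligase gene Cop1 at 0.26 (SE 0.052, adjusted p = 0.00108, limma). Of 24 p53 targets 3 were lower and none higher, with Perp, an adhesion gene of epithelia, at -1.07 (SE 0.271, adjusted p = 0.00593, limma). Of 5 other CDK inhibitors 2 were higher, Cdkn2c (p18) at 0.45 and Cdkn1b (p27) at 0.26. Luminal genes were lower in 11 of 13 and neuroendocrine genes higher in 6 of 17, and with both scores as covariates Rb1 kept a slope of 0.29 on the mitosis score (SE 0.062, adjusted p = 0.00259, limma).

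Where Ccnd1 was higher, beside 18.5% of all genes that passed in either direction, 12 of 13 luminal, 8 of 10 fibroblast and 8 of 9 endothelial genes were higher, and 11 of 17 neuroendocrine genes were lower. Examples are Cldn4, a tight junction gene, at 1.38 (SE 0.249, adjusted p = 0.000571, limma), Postn, a matrix gene, at 0.72 and Syt1, a synaptic vesicle gene, at -0.96. Of 23 mitosis genes 3 were lower and of 36 E2F targets 2 were lower, both under the share of all genes. Of the 5 CDK inhibitors 3 were lower, with Cdkn2c at -0.49 (SE 0.094, adjusted p = 0.000846, limma). Among the other G1 cyclins Ccnd2, the gene of cyclin D2, was higher (0.55, SE 0.122, adjusted p = 0.0025, limma), and the cyclin D kinase gene Cdk6 was lower (-0.72, SE 0.254, adjusted p = 0.0461, limma).

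Along E2f1, where 21.7% of all genes passed in either direction, 11 of 36 E2F targets and 4 of 23 mitosis genes were higher and none lower, the mitosis genes under the share of all genes, with Rrm2 at 0.44 (SE 0.115, adjusted p = 0.00696, limma) and Cdc45, a helicase factor, at 0.26. Of the cell type lists, 13 of 13 luminal genes were lower and 13 of 17 neuroendocrine genes higher, with Cldn4 at -1.41 and Syt1 at 0.94. Of the 24 p53 targets 5 were higher and 8 lower, with Perp at -1.06 and Tap1, an antigen transport gene, at -0.94. Of 12 p53 regulators 4 were higher, among them Trp73, the p53 relative that E2F1 is known to induce (0.35, SE 0.088, adjusted p = 0.00497, limma).

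The remaining members carried few list genes, in fits where few of all genes passed. These shares were 2.67% on Rbl1, 1.58% on Cdkn2a, 0.14% on Cdkn1a, 0.0271% on Rbl2 and 0% on Mdm2 and on Ccne1. Along Rbl1 2 of 23 mitosis genes and 1 of 36 E2F targets were higher, with Bub1 at 0.45 (adjusted p = 0.0313, limma) and Chek2, a p53 kinase, at 0.28 (adjusted p = 0.0252, limma). Along Cdkn2a, Tk1, the thymidine kinase of S phase, was higher (0.23, adjusted p = 0.0477, limma) and Ccng1, a p53 target, lower (-0.33, adjusted p = 0.0304, limma). Along Cdkn1a the other CDK inhibitor Cdkn1c (p57) was higher (0.45, adjusted p = 0.0337, limma), and 0 of 24 p53 targets passed. Along Rbl2, Mdm2 and Ccne1 no gene of any list passed. With so few calls over all genes, small lists could hardly hold one, and the counts of 0 say nothing particular about the lists.

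For each member the 3 genes with the highest r were sought among 10597 genes above the median level. For Rb1, on chromosome 14, they were Cdkn3 (0.924) and Cenpj (0.904), both on chromosome 14 too, and Atad2 (0.903) on chromosome 15. For Cdkn2a, on chromosome 4, the first was Cdkn2b (0.79), its neighbour on chromosome 4, which encodes p15. For Rbl2, on chromosome 8, Phkb (0.857) and Ap1g1 (0.766) lie on chromosome 8, and Arsb (0.778) does not. For E2f1, on chromosome 2, the first was Mfng (0.894), followed by Xkr7 (0.885), on chromosome 2, and the neuronal tubulin gene Tubb3 (0.883). Ccnd1 ran with Tie1 (0.875) and Eng (0.869), both endothelial receptor genes, and with Lhfp (0.848). Cdkn1a ran with Crip1 (0.83), Renbp (0.817) and Frmd8 (0.79), and Rbl1 with Bnip2 (0.897), Plekha1 (0.841) and Map4k5 (0.83). Mdm2 and Ccne1 had no gene above 0.71, and their closest, Mlec (0.685) and Ppat (0.705), did not pass in the fits (adjusted p = 0.681 and 0.342, limma).

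Whether a member followed the level of its whole chromosome was tested on the median centred level of all its named genes, in log2 per log2. Of the 9 members 1 passed, beside 11.2% of 21964 genes placed on a chromosome. E2f1 rose by 5.25 per unit of the chromosome 2 level (SE 1.59, adjusted p = 0.0316, limma), with r 0.543 (permutation p = 0.0037) and rho 0.545 (permutation p = 0.0038), over a chromosome level of only -0.09 in P219 to 0.06 in P503. It did not pass without P219 (4.75, adjusted p = 0.0741, limma), P912 (4.93) or P757 (4.88), nor with the 50 nearest genes on each side in place of the chromosome (1.86, SE 0.886, adjusted p = 0.161, limma), where Ccnd1 passed instead (4.84, SE 1.10, adjusted p = 0.00412, limma). The median slope of all genes on their own chromosome was 1.05. P219 was low on other chromosomes too, at -0.094 on chromosome 4 and -0.12 on chromosome 8. E2f1 passed with quantile normalization, and the fit was not run on arrays centred on their medians. Whether its slope is particular to chromosome 2 was not tested. Rb1 did not pass on chromosome 14 (0.79, SE 1.66, adjusted p = 0.798, limma). P803 had the lowest level of chromosome 14, at -0.17, with Rb1 at 9.75. P311 had the highest level of chromosome 8, at 0.25, and the highest Rbl2, whose slope on that chromosome was 1.17 (SE 0.964, adjusted p = 0.459, limma).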

How the data were processed

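Total RNA of 27 snap-frozen tumours was hybridised to arrays, 1 per tumour. The deposited values are log2 expression made by the authors, with Partek per the submitters' processing notes. For background correction, summarisation and normalization, the method was not given in the sources used here. Rows were named through the platform's probe table: 23521 of 41345 rows had 1 symbol, 1814 several and 16010 are unnamed here. Arrays hold no read depth, and their number limits the precision. Whether probes bind C57BL/6 and PWK/PhJ alleles equally was not tested.

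Member levels and list scores were scaled to SD 1, and every gene was regressed on each, using limma 3.58.1 in R 4.3.3 (eBayes with a trend), two-sided, with list genes left out and Benjamini-Hochberg adjustment over all genes at 0.05. A pair of members counted when it passed in both fits. Clusters of tumours were called with mclust 6.1.1 (BIC difference over 6, Ashman's D over 2, at least 3 tumours), and fits then ran within clusters of at least 6. Correlations used 100000 permutations, two-sided. The fits were tested on simulated data. Alternatives covered normalization, centring, filters, covariates and leaving out tumours.

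The members and lists were chosen with earlier results of these data known. Named genes were the members, the 3 genes most correlated with each, and, of each list, up to 2 with the largest slope, as well as Pbsn; other list genes stand only as examples of what a list holds. Chromosomes come from RefSeq (GRCm38.p6), which placed 21994 genes by Entrez ID.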

Additional observations from a re-analysis of the deposited data

How the results depend on the processing

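In all, 872 alternative values kept their direction and side of the threshold (for counts, stayed within 1.5 times), 61 kept the direction but no longer passed, 32 counts moved and 2 slopes reversed; for these the cause was not tested. The slope of Rb1 on the mitosis score passed in every setting run. Of the reversed slopes, Rb1 on the E2F score was -0.238 with the mitosis score as a covariate (adjusted p = 0.253, limma), and E2f1 on the p53 target score was 0.0777 with the neuroendocrine and luminal scores as covariates (adjusted p = 0.897, limma). Both fits rest on the small part of a score that its covariates leave. The E2F and mitosis scores had r 0.913, and the p53 target and luminal scores 0.895. Leaving out P425, P219 and P268 together, and the 4 tumours low in neuroendocrine genes, was chosen after seeing the data.

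The called pairs numbered 1, and 2 with quantile normalization, arrays centred on their medians, only genes above the median level, or normal scores of the level, where Rb1 with Ccnd1 joined. It stayed 1 with the neuroendocrine and luminal covariates and without the 4 tumours, but there Ccnd1 with E2f1 was lost and Rb1 with Rbl1 called in its place; leaving out 1 tumour gave 1 to 2. Of the members, 2 passed on the E2F score, 1 with quantile normalization, and 0 with normal scores, the mitosis covariate, without P425, P219 and P268, or without the 4 tumours. With the neuroendocrine and luminal covariates it stayed 2, but Cdkn1a took the place of Rb1. Leaving out 1 tumour gave 0 (P425) to 3. On the mitosis score 2 passed, 1 with quantile normalization and 4 with the neuroendocrine and luminal covariates (Rb1, Rbl1, Ccne1 and Cdkn1a), and Ccnd1 took the place of Ccne1 with normal scores, without P425, and without P425, P219 and P268; leaving out 1 tumour gave 1 to 3. On the p53 target score 4 passed, 0 with those covariates (beside 0 of 22156 genes) and 1 without the 4 tumours (beside 1661). Leaving out 1 tumour gave 3 to 5. On the fibroblast score 3 passed and 0 in both of these settings, beside 94 and 133 of 22170 genes. Leaving out 1 tumour gave 2 to 3. On the macrophage score 0 passed, 1 with the mitosis covariate, and 0 to 1 with 1 tumour left out. With all 27 tumours pooled 1, 2 and 3 members passed on the androgen-responsive, neuroendocrine and luminal scores, against 0 within clusters. Of all genes 2724 of 22169, 4766 of 22163 and 6915 of 22167 passed in these pooled fits, shares close to those of the members. On the own chromosome 1 passed, 2 with quantile normalization and 0 with the animal number as a covariate; leaving out 1 tumour gave 0 to 2.

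Counts of all genes moved too. On the Rb1 level 5488 passed, 2927 without P425 and 18 with the mitosis covariate. On Rbl1 593 passed (159 without P471, 1795 with the mitosis covariate), on Rbl2 6 (1 without P219, 201 with chromosome medians removed), on Cdkn2a 351 (2 without P503, 1156 with the mitosis covariate) and on Cdkn1a 31 (2 without P966, 1478 with the mitosis covariate). On Ccnd1 4111 passed (2710 without P966, 3 with the neuroendocrine and luminal covariates) and on E2f1 4804 (3046 with these). On the E2F score 5190 passed (1892 without P425, 176 with the mitosis covariate), on mitosis 5838 (3599 without P425, 2603 with the composition covariates), on the p53 target score 6406 (0 with them), on fibroblast 3201 (1412 without P471, 94 with them), on macrophage 895 (247 without P471, 185 with them, 1679 with the mitosis covariate), and on the own chromosome 2463 (3725 with quantile normalization). Within clusters, 5 passed on the androgen-responsive score (0 without P235) and 214 on the low luminal score (9 without P502); 0 passed on the high luminal score (227 without P471, 107 without P425, 274 with the mitosis covariate) and on the neuroendocrine score (38 without P569, 14 with arrays centred on their medians).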
